A study of Mus musculus with 6 samples.

Results

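Genes of mitosis and of the kinetochore were followed in newborn mouse collecting duct cells of 2 genotypes, knockout and wild type for Bdkrb2, which encodes the B2 receptor for bradykinin. The set was chosen by symbol and holds 50 genes that carry cells through the M phase: cyclins and their kinases, the Polo and Aurora kinases, the spindle checkpoint, centromere and kinetochore proteins, spindle kinesins, cytokinesis factors, condensin and the enzymes that release sister chromatids. All 50 were among the 20887 genes named on the array, and 49 of them were among the 14755 genes whose signal was high enough to be tested. The remaining gene, Aurkb, the kinase of the chromosomal passenger complex, had 1 probe, which rose above background on none of the arrays. Of the 49 genes tested, 46 were well above background on all 6 arrays, and each was so on at least 1 wild-type array. The others were Cdk6 (1 wild-type and 2 knockout arrays), Cenpf (1 and 3) and Ncapg (2 and 3). For Cenpf and Ncapg the knockout arrays alone met the rule of at least 3 arrays above background, and the wild-type arrays alone did not.

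RNA from 6 samples was hybridised to 2-colour Agilent mouse arrays, 3 samples per genotype. The knockout group (KO) came from Hoxb7cre+; Bdkrb2 F/F pups with the R26RtdTomato reporter, so Cre could act on the floxed gene only where the Hoxb7 promoter is active, which is the ureteric bud lineage. The wild-type group (WT) came from Hoxb7cre+; R26RtdTomato; Bdkrb2+/+ pups. Both groups were C57BL/6, carried the Cre, were kept on food with 5% sodium through gestation, and were sorted by flow cytometry as GFP and dsRED positive cells on postnatal day 1. No group without high salt was analysed here. The only cross that the labels describe has Bdkrb2 F/F parents on both sides and gives no WT pups, so litter and genotype cannot be told apart, and the number of animals per sample is not given. Where samples were not taken from separate animals, the p-values measure the spread between samples only. Each array held the sample in Cy5 and the RNA of WT replicate 1 in Cy3, so a value is a log2 ratio to that reference, and the array of WT replicate 1 set that RNA against itself. Bdkrb2 itself was read by 1 probe whose Cy5 signal was 0.972 to 1.11 times the background around the spot and was above background on 0 of the 6 arrays, so the deletion could not be checked. Between 49.8% and 52.7% of probes on the WT arrays and between 56.6% and 57.5% on the KO arrays were well above background in Cy5.

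Mitosis begins when cyclins A and B activate Cdk1, which together with the Polo and Aurora kinases drives chromosome condensation and spindle assembly. Microtubules attach to kinetochores built on centromeric chromatin, and the spindle checkpoint holds the anaphase-promoting complex inactive until every kinetochore is attached. Many of these genes are transcribed together late in the cell cycle, in textbook accounts through the MuvB complexes with B-Myb and FoxM1, and are kept silent in resting cells by the same core within the DREAM complex. In the newborn kidney, ureteric bud tips, nephron progenitors and stroma still divide, while principal and intercalated cells of the collecting duct are maturing.

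Most of the genes were higher in KO cells by a modest amount. Of the 49 tested, 33 rose (67.3%) and 1 fell in KO, at an adjusted p under 0.05 in limma's moderated test with Benjamini-Hochberg adjustment over all 14755 genes. Among all genes tested, 15.3% were called higher and 20% lower by the same rule, 35.3% in all. The 33 genes that rose did so by 1.26-fold to 2.26-fold, and Kif15 was the single gene past 2-fold. The count past 2-fold turned on the setting, with 5 genes by Agilent's own log ratio (Ccnd2, Cenpe, Kif15, Kif20a and Ncapg), 3 with a normexp offset of 10 (Ccnd2, Cenpe and Kif15) and 0 with slide row as a block. It was highest, at 14, under median centring, which moved the median of all genes to 0.24. Without KO replicate 1, Kif15 differed by 0.88 and Ccnd2 was the only gene past 2-fold. The median difference over the 49 genes was 0.49 on the log2 scale, or 1.41-fold, beside a median of -0.02 over all genes. The median log2 ratio of the 49 genes stood at 0.01, 0.04 and 0.04 on the arrays of WT replicates 1, 2 and 3 and at 0.62, 0.47 and 0.58 on those of KO replicates 1, 2 and 3, so the KO arrays all lay above the WT arrays. For 41 genes each KO value exceeded each WT value, which held for 23.9% of all genes, and for 2 genes, Cdc25b and Spc25, each KO value lay below each WT value, which held for 28.2% of all genes. The values of the other 6, Ccnd3, Cdk6, Cenpf, Cenph, Kif23 and Pttg1, overlapped between genotypes. In the Cy3 channel, where all arrays carried the same RNA, the median difference of the 49 genes between KO and WT arrays was -0.000638, and 24 of them lay above 0. The largest in size was 0.69, for Plk4.

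**Figure D1:**
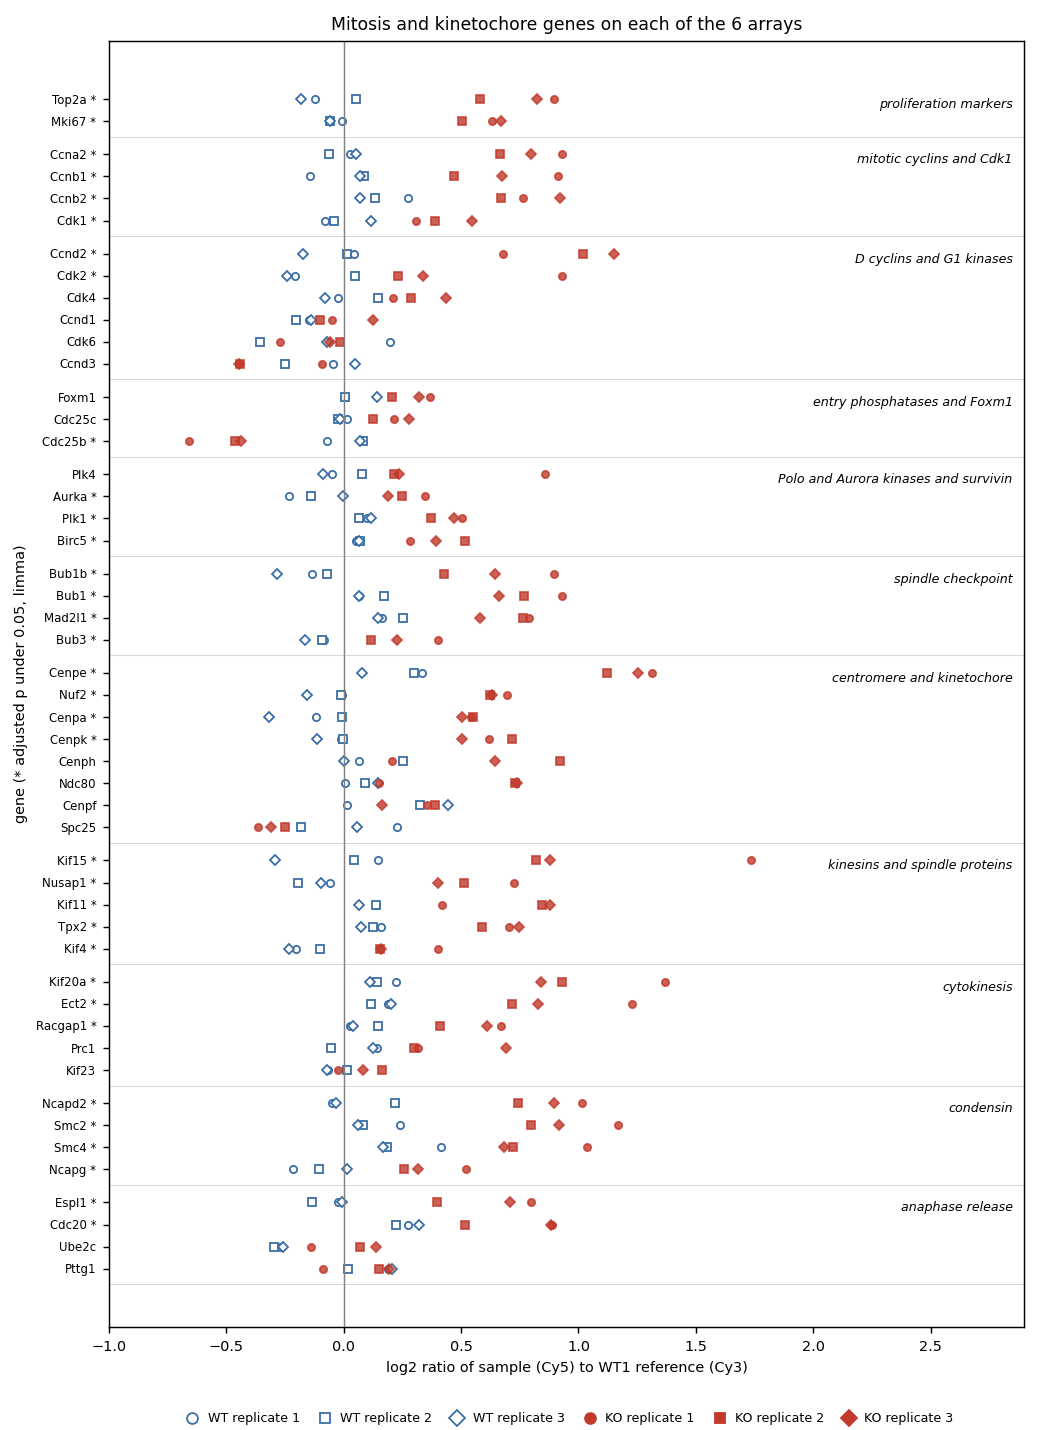
Log2 ratio of sample to the WT replicate 1 reference (x axis) for each of the 49 genes tested (y axis, grouped by role), with 1 open blue symbol per WT array and 1 filled red symbol per KO array; an asterisk marks an adjusted p under 0.05. Red symbols lie to the right of all blue ones for 41 genes and to the left for Cdc25b and Spc25.

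The 6 arrays lay on 1 slide, with the KO arrays and WT replicate 1 in row 1 and WT replicates 2 and 3 in row 2. With slide row as a block, in effect a comparison of KO with WT replicate 1, 13 of the 49 genes were called higher and 0 lower, against 4.95% and 9.99% of all genes, while the median difference was 0.53. Those 13 genes were Mki67, Top2a, Ccna2, Ccnb1, Ccnd2, Bub1, Bub1b, Cenpa, Cenpe, Cenpk, Nuf2, Smc2 and Ncapd2, and they also kept their calls in each of the 17 alternative settings.

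**Figure D2:**
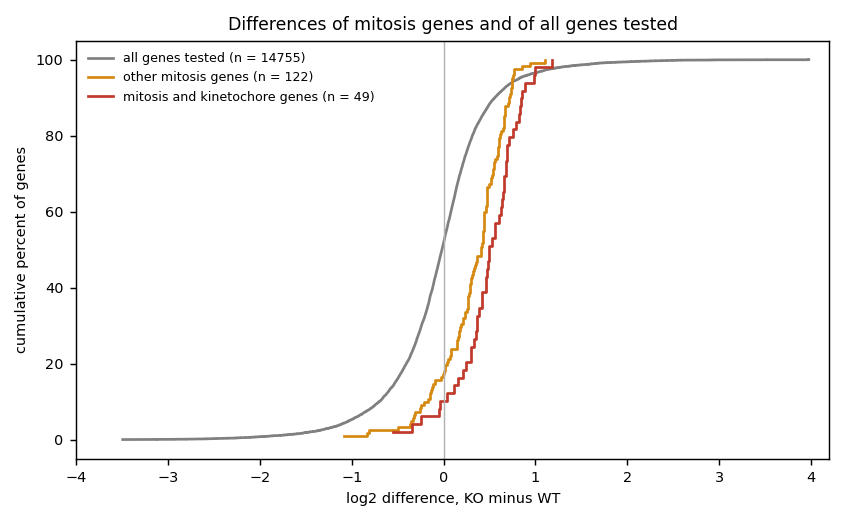
Cumulative percent of genes (y axis) by log2 difference of KO minus WT (x axis) for all 14755 genes tested (grey), for 122 other mitosis genes (orange) and for the 49 mitosis and kinetochore genes (red). The red curve runs from -0.55 to 1.18 with its median at 0.49, to the right of the grey curve's median of -0.02.

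Promoter windows of 300 bases, from 250 before to 50 after the transcription start, were held for 41 of the 50 genes in the RefSeq table of build GRCm38.p6. The windows were searched on both strands for the cell cycle homology region (CHR), TTTGAA, the element that MuvB complexes bind, and for the CCAAT box, CCAAT, bound by NF-Y and often found upstream of a CHR. The sequences below are the 4 genes that rose whose CHR match lay nearest the start, with Ccnd3, a D cyclin whose values overlapped between genotypes, for contrast. They are written 5′ to 3′ on the gene's strand, and capitals mark CHR and CCAAT matches, ATTGG being a CCAAT box on the other strand.
Ccnb2 (chr9:70421505-70421804, minus strand): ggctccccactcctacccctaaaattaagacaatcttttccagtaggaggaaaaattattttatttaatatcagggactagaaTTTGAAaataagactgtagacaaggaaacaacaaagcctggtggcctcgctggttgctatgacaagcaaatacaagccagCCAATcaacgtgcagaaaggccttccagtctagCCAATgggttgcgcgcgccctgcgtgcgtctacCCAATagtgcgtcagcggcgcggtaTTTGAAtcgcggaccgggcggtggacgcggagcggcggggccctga
Racgap1 (chr15:99651607-99651906, minus strand): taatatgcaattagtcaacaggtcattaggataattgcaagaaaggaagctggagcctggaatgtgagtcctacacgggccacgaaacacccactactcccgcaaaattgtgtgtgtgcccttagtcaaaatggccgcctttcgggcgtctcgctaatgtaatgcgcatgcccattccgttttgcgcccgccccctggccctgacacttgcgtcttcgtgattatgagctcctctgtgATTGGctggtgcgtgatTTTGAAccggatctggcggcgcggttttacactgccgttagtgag
Cdk1 (chr10:69352863-69353162, minus strand): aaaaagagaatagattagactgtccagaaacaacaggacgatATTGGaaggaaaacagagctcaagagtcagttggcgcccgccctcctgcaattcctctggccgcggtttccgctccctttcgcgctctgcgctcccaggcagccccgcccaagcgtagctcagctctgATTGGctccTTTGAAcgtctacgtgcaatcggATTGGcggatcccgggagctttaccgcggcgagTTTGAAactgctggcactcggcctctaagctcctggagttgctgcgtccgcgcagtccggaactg
Ect2 (chr3:27153805-27154104, minus strand, 1 of 2 windows held for this gene): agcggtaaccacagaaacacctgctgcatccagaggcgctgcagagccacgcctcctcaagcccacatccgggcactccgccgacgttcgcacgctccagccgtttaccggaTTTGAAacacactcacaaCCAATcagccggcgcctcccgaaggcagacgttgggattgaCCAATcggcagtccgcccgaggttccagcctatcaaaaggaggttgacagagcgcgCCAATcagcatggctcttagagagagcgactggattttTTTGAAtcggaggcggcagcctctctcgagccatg
Ccnd3 (chr17:47504801-47505100, plus strand, 1 of 2 windows held for this gene): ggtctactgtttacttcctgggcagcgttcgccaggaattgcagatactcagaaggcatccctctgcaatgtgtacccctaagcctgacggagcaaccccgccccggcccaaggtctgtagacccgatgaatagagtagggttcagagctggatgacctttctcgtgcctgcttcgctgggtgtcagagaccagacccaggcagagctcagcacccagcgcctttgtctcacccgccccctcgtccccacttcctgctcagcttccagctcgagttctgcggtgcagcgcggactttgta

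In Ccnb2 the nearest CHR match began 5 bases from the start, in Racgap1 6 bases, in Ect2 16 bases and in Cdk1 -15 bases, negative being upstream. The window of Ccnd3 shown held 0 matches to either element, while its other window held a CCAAT box 108 bases upstream of that start, so the gene counts among those with a CCAAT box. A gene with several windows was counted once, as holding an element if any window did. A CHR match was present in 25 of the 41 genes with a window (61.0%), against 1718 of 11692 genes tested that have a window (14.7%) and 20.2% of all genes with one. Within 60 bases of the start, the share was 56.1% of the 41 genes against 4.34% of genes tested. A CCAAT box was present in 75.6% of the 41 genes and in 42.4% of genes tested, and both elements in 56.1% and 7.07%. The E2F-type sequences TTTGGCGC and TTTCCCGC were present in 9.76% of the 41 genes and in 3.04% of genes tested.

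Within the set, a CHR match was present in 19 of the 28 genes that rose and have a window (67.9%) and in 6 of the 13 others (46.2%), namely Cenpf, Kif23, Ndc80, Prc1, Spc25 and Ube2c. In Cenpf and Kif23 the match began 3 bases from the start, nearer than in any sequence shown, and in Prc1 at -5 bases. Over the whole array, genes called higher held one in 16.2% of cases and genes called lower in 13.8%. A match is a description of the letters and not evidence of a bound site.

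**Figure D3:**
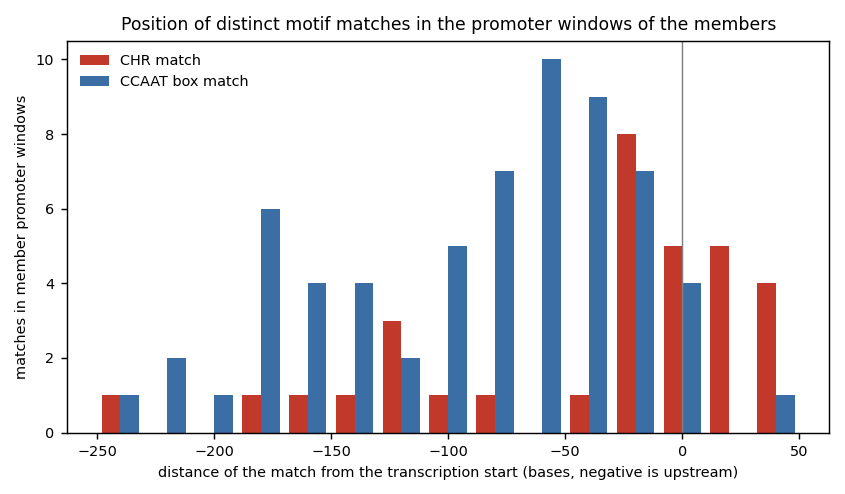
Number of motif matches in the promoter windows of the 41 genes (y axis, bins of 20 bases) by distance from the transcription start in bases (x axis, negative is upstream), with CHR matches in red and CCAAT box matches in blue. A site held by overlapping windows of a gene is counted once, at its distance from the nearer start, and of 32 CHR matches 23 lie within 60 bases of the start.

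Both general markers of dividing cells rose. Mki67, which encodes the Ki-67 antigen coating mitotic chromosomes, had log2 ratios of -0.01, -0.06 and -0.06 on the WT arrays and 0.63, 0.50 and 0.67 on the KO arrays. The genotypes did not overlap, and the difference was 0.64 ± 0.10 (SE, n = 3 per group), or 1.56-fold, with an adjusted p of 0.00176 in limma. A further Mki67 probe gave a difference of 0.48. Top2a, the topoisomerase that untangles replicated chromosomes, stood at -0.12, 0.05 and -0.18 in WT and at 0.90, 0.58 and 0.82 in KO. Its lowest KO value, in replicate 2, was still above every WT value, and it rose 1.80-fold (log2 difference 0.85 ± 0.12, adjusted p 0.00145 in limma).

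All 4 genes for the mitotic cyclins and Cdk1 rose, with a median difference of 0.65. Ccna2, cyclin A2, which acts from S phase into early mitosis, measured 0.03, -0.06 and 0.05 in WT and 0.93, 0.67 and 0.80 in KO. These values did not overlap, and the difference was 0.79 ± 0.11 or 1.73-fold (adjusted p 0.0011, limma). Ccnb1, cyclin B1, the main partner of Cdk1 at mitotic entry, measured -0.14, 0.09 and 0.07 in WT and 0.91, 0.47 and 0.67 in KO. KO replicate 1 was the highest, and the rise of 1.60-fold (0.68 ± 0.14, adjusted p 0.00647, limma) was smaller on its other probes, which gave 0.58 and 0.31. Ccnb2, cyclin B2, whose promoter is shown above, measured 0.27, 0.13 and 0.07 in WT and 0.76, 0.67 and 0.92 in KO. Here KO replicate 3 was the highest and the groups stayed apart (difference 0.63 ± 0.11, 1.54-fold, adjusted p 0.00367, limma). Cdk1, the mitotic kinase itself, measured -0.08, -0.04 and 0.11 in WT and 0.31, 0.39 and 0.54 in KO. Its rise of 1.33-fold (0.42 ± 0.11, adjusted p 0.0205, limma) came from the brightest probe, while another probe, above background on 1 WT and 3 KO arrays, gave -0.07. With the mean of its probes the difference was 0.17 (adjusted p 0.241, limma). The Cdk1 call was lost without WT replicate 1, WT replicate 2, KO replicate 2 or KO replicate 3, with adjusted p up to 0.0749.

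Of the 6 D cyclins and kinases of G1, 2 rose, and the median difference was 0.23. Ccnd2, cyclin D2, one of the growth factor inducible cyclins that start the cycle, had ratios of 0.04, 0.02 and -0.18 in WT and 0.68, 1.02 and 1.15 in KO. KO replicate 1 was the lowest of the KO values, yet above every WT value, and the gene rose 1.98-fold (0.99 ± 0.14, adjusted p 0.00148, limma). Ccnd1, cyclin D1, had ratios of -0.15, -0.20 and -0.14 in WT and -0.05, -0.10 and 0.12 in KO. Its groups did not overlap, but the difference of 0.15 had a 95% interval of -0.08 to 0.39 and did not pass the test (adjusted p 0.278, limma). Ccnd3, cyclin D3, had ratios of -0.04, -0.25 and 0.05 in WT and -0.09, -0.44 and -0.45 in KO. KO replicate 1 lay among the WT values, and the difference was -0.25 with a 95% interval of -0.56 to 0.07 (adjusted p 0.196, limma). Ccnd3 was called lower without KO replicate 1 and with array weights, and had a difference of 0.12 under median centring.

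Cdk2, the partner of cyclins E and A, stood at -0.21, 0.05 and -0.24 in WT and 0.93, 0.23 and 0.34 in KO. Its rise of 1.55-fold (0.63 ± 0.19, adjusted p 0.0332, limma) had KO replicate 1 as the highest array, and the difference was 0.42 without that array. Its call was lost without WT replicate 1 or WT replicate 3 (adjusted p up to 0.117) and with Cy5 alone (0.0677). Cdk4, a partner of the D cyclins, stood at -0.02, 0.15 and -0.08 in WT and 0.21, 0.29 and 0.44 in KO. That difference of 0.30 ± 0.11 missed the threshold (adjusted p 0.0713, limma), whereas its other probes gave 0.49 and 0.66. Cdk4 was called higher without KO replicate 1, with the mean of its probes (0.48, adjusted p 0.0113), under median centring and with array weights. Cdk6, the other D cyclin kinase, was above background on 1 WT and 2 KO arrays and differed by -0.04 with a 95% interval of -0.40 to 0.32.

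The phosphatases that remove the inhibitory phosphates from Cdk1, and Foxm1, the transcription factor of late cell cycle genes, included the only gene of the set that fell. Cdc25b, the phosphatase that starts the activation of Cdk1 at the centrosome, had ratios of -0.07, 0.08 and 0.07 in WT and -0.66, -0.46 and -0.44 in KO. Every KO array was below every WT array, and the level fell by 1.46-fold (log2 difference -0.55 ± 0.11, adjusted p 0.00587, limma). This call was not kept with slide row as a block or under median centring of the arrays, used instead of loess. Cdc25c, which acts at full mitotic entry, had ratios of 0.02, -0.02 and -0.02 in WT and 0.21, 0.13 and 0.28 in KO. Foxm1 had ratios of 0.01, 0.01 and 0.14 in WT and 0.37, 0.21 and 0.32 in KO. In both genes the groups did not overlap, but the differences of 0.21 ± 0.09 and 0.25 ± 0.10 missed the threshold (adjusted p 0.115 and 0.0911, limma). Cdc25c was called higher with Agilent's log ratio and the series matrix (difference 0.41, adjusted p 0.0275 in both) and with Cy5 alone, while Foxm1 was called in no setting. The second Foxm1 probe gave -0.04, and the mean of both probes 0.10.

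Among the Polo and Aurora kinases and survivin, 3 of the 4 tested rose, and the median difference was 0.37. Plk1, Polo-like kinase 1, needed for spindle poles, kinetochores and cytokinesis, measured 0.10, 0.06 and 0.12 in WT and 0.51, 0.37 and 0.47 in KO. The groups were apart, and the rise was 1.28-fold (0.36 ± 0.09, adjusted p 0.0204, limma). Aurka, the Aurora kinase of centrosomes and spindle poles, measured -0.23, -0.14 and -0.0026 in WT and 0.35, 0.25 and 0.19 in KO, a rise of 1.31-fold (adjusted p 0.0237, limma). Birc5, survivin, which targets Aurora B to centromeres, measured 0.05, 0.07 and 0.06 in WT and 0.28, 0.52 and 0.39 in KO, a rise of 1.26-fold (adjusted p 0.0345, limma) with KO replicate 2 the highest. Each of these calls was lost in several fits with 1 array left out. That of Plk1 was lost without any 1 of the 3 WT replicates or KO replicate 3 (adjusted p up to 0.0687), that of Aurka without WT replicate 1, WT replicate 2 or KO replicate 2 (up to 0.0878), and that of Birc5 without any single array other than KO replicate 1 (up to 0.11). Plk4, the kinase of centriole duplication, measured -0.05, 0.08 and -0.09 in WT and 0.86, 0.21 and 0.24 in KO, high in KO replicate 1, and its difference of 0.46 missed the threshold (adjusted p 0.0805, limma). The Plk4 difference was 0.25 without KO replicate 1 and 0.90 with Agilent's log ratio, and it was called higher with Cy5 alone (1.59, adjusted p 0.00603) and under median centring (adjusted p 0.00879). In Cy3, which held the same RNA on every array, Plk4 differed by 0.69 between KO and WT arrays. The value with Cy5 alone therefore cannot be read as a difference of the samples only. On the WT arrays its Cy5 signal was 1.69 to 1.93 times the background around the spot.

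All 4 spindle checkpoint genes rose, with a median difference of 0.60. Bub1, the kinase that recruits the checkpoint to kinetochores, stood at 0.06, 0.17 and 0.07 in WT and at 0.93, 0.77 and 0.66 in KO. WT and KO were well apart, and the difference was 0.69 ± 0.11 or 1.61-fold (adjusted p 0.00217, limma). Bub1b, which encodes BubR1 of the mitotic checkpoint complex, stood at -0.14, -0.07 and -0.29 in WT and at 0.90, 0.43 and 0.64 in KO. KO replicate 1 was the highest, and the gene rose 1.77-fold (0.82 ± 0.14, adjusted p 0.00293, limma). Mad2l1, the Mad2 protein that sequesters Cdc20, stood at 0.16, 0.25 and 0.15 in WT and at 0.79, 0.77 and 0.58 in KO, a rise of 1.44-fold (adjusted p 0.00585, limma). Bub3, their shared partner, rose 1.28-fold (adjusted p 0.0332, limma), a call lost without any 1 of the WT replicates or KO replicate 3 (adjusted p up to 0.122).

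Of the 8 centromere and kinetochore genes, 4 rose, and the median difference was 0.57. Cenpe, the kinesin that carries chromosomes along microtubules to the spindle equator, had ratios of 0.33, 0.30 and 0.08 in WT and 1.31, 1.12 and 1.25 in KO. Each KO value was far above each WT value, and it rose 1.99-fold (0.99 ± 0.11, adjusted p 0.000546, limma). Nuf2, which forms the microtubule-binding complex with Ndc80, had ratios of -0.01, -0.01 and -0.16 in WT and 0.70, 0.62 and 0.63 in KO. The 3 KO arrays were close together and the rise was 1.63-fold (0.71 ± 0.10, adjusted p 0.00119, limma). Cenpk, of the inner kinetochore network, had ratios of -0.01, -0.004 and -0.11 in WT and 0.62, 0.72 and 0.50 in KO, a rise of 1.58-fold (adjusted p 0.00207, limma). Cenpa, the histone H3 variant that defines the centromere, rose 1.60-fold (difference 0.68 ± 0.11, adjusted p 0.00242, limma).

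The members of the Ndc80 complex did not all go one way. Ndc80 read 0.0048, 0.09 and 0.14 in WT and 0.15, 0.73 and 0.74 in KO. Only KO replicates 2 and 3 stood far above WT, and the difference of 0.46 ± 0.17 missed the threshold (adjusted p 0.0644, limma). Spc25 read 0.23, -0.18 and 0.06 in WT and -0.36, -0.25 and -0.31 in KO. All KO values lay below all WT values, and the difference was -0.34 with a 95% interval of -0.63 to -0.05 (adjusted p 0.0657, limma). Spc25 was called lower without WT replicate 2 and with array weights, and had a difference of 0.04 under median centring. Cenph read 0.06, 0.25 and -0.00026 in WT and 0.21, 0.92 and 0.64 in KO (adjusted p 0.0701, limma), with KO replicate 1 inside the WT range. Ndc80 and Cenph were called higher without KO replicate 1, under median centring and with array weights, and Cenph differed by 0.32 without KO replicate 2. Cenpf, a large protein of the kinetochore corona, was above background on 1 WT and 3 KO arrays and differed by 0.04 with a 95% interval of -0.27 to 0.35.

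All 5 genes of the mitotic kinesins and spindle factors rose, with a median difference of 0.60. Nusap1, which bundles microtubules near chromosomes, measured -0.06, -0.19 and -0.10 in WT and 0.72, 0.51 and 0.40 in KO. Tpx2, which activates Aurora A on the spindle, measured 0.16, 0.13 and 0.07 in WT and 0.71, 0.59 and 0.75 in KO. Neither gene's groups overlapped, and the rises were 1.58-fold and 1.48-fold (adjusted p 0.00335 and 0.00323, limma). Kif15, a kinesin that helps keep spindle poles apart, measured 0.14, 0.04 and -0.29 in WT and 1.73, 0.82 and 0.88 in KO. KO replicate 1 lay well above the other KO arrays, and the difference of 1.18 ± 0.25 or 2.26-fold carried the largest SE of the set (adjusted p 0.00767, limma). Kif11, the kinesin that separates the poles, rose 1.52-fold and lost the call without WT replicate 3 (adjusted p 0.0523). Kif4, the chromosome-bound kinesin, rose 1.34-fold and lost the call without WT replicate 1 or WT replicate 3 (adjusted p up to 0.0829), and with Cy5 alone its difference was 0.66 in place of 0.42.

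Of the 5 cytokinesis genes, 3 rose, with a median difference of 0.49 over the 5. Kif20a, a kinesin of the central spindle, had ratios of 0.22, 0.14 and 0.11 in WT and 1.37, 0.93 and 0.84 in KO. Ect2, the exchange factor that activates RhoA at the furrow, had ratios of 0.19, 0.12 and 0.20 in WT and 1.23, 0.72 and 0.83 in KO. In both genes KO replicate 1 was the highest array and no WT value reached a KO value, for rises of 1.85-fold and 1.69-fold (adjusted p 0.00285 and 0.00491, limma). Racgap1, the centralspindlin subunit that binds Ect2, had ratios of 0.03, 0.14 and 0.04 in WT and 0.67, 0.41 and 0.61 in KO, a rise of 1.41-fold (adjusted p 0.00926, limma). Kif23, the motor subunit of centralspindlin, differed by 0.11 with a 95% interval of -0.11 to 0.34. Prc1, the bundler of antiparallel microtubules, differed by 0.37 ± 0.13 and missed the threshold (adjusted p 0.0678, limma). It was called higher in 6 settings, namely Agilent's log ratio (adjusted p 0.0319), the series matrix, median centring, Cy5 alone, array weights and without KO replicate 1, and its difference was 0.24 without KO replicate 3.

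All 4 condensin genes rose, with a median difference of 0.70. Ncapd2, a subunit of condensin I, stood at -0.05, 0.22 and -0.04 in WT and 1.02, 0.74 and 0.89 in KO. Smc2, an ATPase core subunit shared by both condensins, stood at 0.24, 0.08 and 0.06 in WT and 1.17, 0.80 and 0.92 in KO. The genotypes were far apart in both genes, which rose 1.79-fold and 1.78-fold (adjusted p 0.00155 and 0.00173, limma). Smc4, the partner of Smc2 in the ATPase core, stood at 0.41, 0.18 and 0.17 in WT and 1.03, 0.72 and 0.68 in KO. Its rise was 1.47-fold, lost without WT replicate 3 (adjusted p 0.0592). Ncapg, another condensin I subunit, was above background on 2 of 3 WT arrays. Its call was lost without WT replicate 1 (adjusted p 0.0591), and its size is uncertain near background, with a difference of 0.47 ± 0.11 as reported, 0.84 with a normexp offset of 10 and 1.05 with Agilent's log ratio.

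Of the 4 genes that release sister chromatids at anaphase, 2 rose. Espl1, separase, the protease that cuts cohesin, measured -0.02, -0.14 and -0.01 in WT and 0.80, 0.40 and 0.71 in KO. Its groups did not overlap, and it rose 1.61-fold (0.69 ± 0.13, adjusted p 0.00437, limma). Cdc20, the activator of the anaphase-promoting complex, measured 0.27, 0.22 and 0.32 in WT and 0.89, 0.52 and 0.88 in KO, a rise of 1.41-fold (adjusted p 0.018, limma) that was lost without any 1 of the WT replicates or KO replicate 3 (up to 0.0579). Ube2c, the ubiquitin-conjugating enzyme of that complex, measured -0.27, -0.30 and -0.26 in WT and -0.14, 0.07 and 0.14 in KO. KO lay above WT, but the difference of 0.30 ± 0.11 missed the threshold (adjusted p 0.0633, limma). Ube2c was called higher without KO replicate 1 (0.0137), with array weights (0.0103), with Cy5 alone, under median centring and, at the edge of the threshold, with the series matrix. Pttg1, securin, the inhibitor of separase, differed by -0.05 with a 95% interval of -0.32 to 0.22.

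Other genes of mitosis and of its control were listed by pathway. Of 126 such genes, 122 were tested. Of these, 62 rose (50.8%, against 15.3% of all genes), 4 fell (against 20%), and the median difference was 0.41. The count of 62 became 32 without WT replicate 3 (8.6% of all genes) and 13 with slide row as a block (4.95% of all genes). Per array the median log2 ratio was 0.08, 0.08 and 0.05 in WT and 0.54, 0.41 and 0.41 in KO. Among 30 further kinetochore genes 18 rose and 0 fell, led by Hjurp, the chaperone that loads Cenpa (1.10 ± 0.15, adjusted p 0.00107, limma), with Ska3 (0.67) and Nsl1 (0.66). With the mean of their probes, Hjurp differed by 0.63 and Nsl1 by 0.37, and both were still called (adjusted p 0.00143 and 0.0177, limma). With Agilent's log ratio Hjurp differed by 1.66. Among 15 genes of the passenger complex and of cohesion 8 rose, among them Sgo1, which protects centromeric cohesin (0.67), Cdca5, sororin (0.61), and the cohesin ATPase Smc3 (0.47). Of 20 further kinesins and spindle genes 16 rose, with Tacc3 at 0.71, Kif20b at 0.70 and Anln, anillin, at 0.62. Of 4 further condensin genes 3 rose, Ncapg2 (0.43), Ncaph (0.54) and Ncapd3 (0.40). The calls of Smc3, Ncapg2, Ncaph and Ncapd3 were lost without WT replicate 3, with adjusted p of 0.0784, 0.0597, 0.0523 and 0.0587.

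The anaphase-promoting complex is the ubiquitin ligase that ends mitosis. Of 14 of its genes tested 2 rose (14.3%), close to the 15.3% of all genes called higher, and the median difference was 0.18. Its subunit Cdc27 stood at 0.16, 0.10 and -0.05 in WT and 1.77, 0.62 and 0.65 in KO. KO replicate 1 lay far above the other KO arrays, and the difference was 0.94 ± 0.29 (adjusted p 0.0348, limma). The Cdc27 difference was 0.57 without KO replicate 1 and 0.19 with the mean of its probes (adjusted p 0.221). The gene was likewise not called without any 1 of the WT replicates and with Agilent's log ratio, the series matrix or Cy5 alone. The other was Ube2s, its chain-extending enzyme (0.41 ± 0.11, adjusted p 0.0219, limma), a call lost with Cy5 alone and without WT replicate 1, WT replicate 3, KO replicate 2 or KO replicate 3 (adjusted p up to 0.0751). Fbxo5, an inhibitor of the complex, differed by 0.46 ± 0.16 and missed the threshold (adjusted p 0.0517, limma), but was called higher without KO replicate 1 (0.00212), with array weights, with the mean of its probes and under median centring. Of 13 further kinase and entry genes 8 rose, with the Cdk subunit Cks1b at 0.75, the phosphatase Cdc25a at 0.53 and the kinase Melk at 0.66.

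Of the inhibitors that hold cells out of the cycle, 3 fell in KO and 3 did not pass the test. Cdkn1a, the p21 inhibitor of Cdk2, had ratios of -0.04, -0.06 and 0.02 in WT and -0.86, -0.93 and -0.78 in KO. Cdkn2b, the p15 inhibitor of Cdk4 and Cdk6, had ratios of 0.20, 0.15 and 0.50 in WT and -0.84, -0.97 and -0.62 in KO. Cdkn2d, the p19 inhibitor of the same kinases, had ratios of 0.15, -0.06 and 0.17 in WT and -0.43, -0.32 and -0.48 in KO. All KO values lay below all WT values in these 3 genes, which fell 1.78-fold, 2.13-fold and 1.41-fold (adjusted p 0.000565, 0.000866 and 0.00931, limma). Ccne1, cyclin E1, the partner of Cdk2 at the entry to S phase, rose from 0.26, 0.33 and 0.25 in WT to 0.98, 0.60 and 0.68 in KO (0.47 ± 0.12, adjusted p 0.0185, limma), a call lost without WT replicate 1 or WT replicate 3 (up to 0.0724) and with Agilent's log ratio (0.0508), the series matrix or Cy5 alone. The inhibitors Cdkn1b (-0.37 ± 0.15), Cdkn1c (-0.13 ± 0.34) and Cdkn2c (0.01 ± 0.15) did not pass the test. So of 7 genes tested in this list 1 rose and 3 fell, against 15.3% and 20% of all genes.

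Of 19 genes of the E2F and DREAM transcription factors, 6 rose (31.6%) and 1 fell, against 15.3% and 20% of all genes. Rb1, the retinoblastoma protein that restrains E2F, had ratios of -0.01, -0.23 and 0.0047 in WT and -0.66, -1.09 and -0.94 in KO. It was lower on every KO array and fell 1.76-fold (adjusted p 0.00298, limma). E2f8, a repressor E2F that is itself induced in cycling cells (0.74 ± 0.12, adjusted p 0.00218, limma), and Rbl1, the pocket protein p107 (0.60 ± 0.10, adjusted p 0.00303, limma), rose. The calls of Rb1, Cdkn1a and Cdkn2d were lost under median centring, which moved the median of all genes to 0.24, while Cdkn2b was called in every setting. With slide row as a block, Cdkn2d (-0.57) and Rbl1 (0.53) were not called.

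The DNA replication licensing genes, which act before mitosis, rose as well, 15 of 16 of them (93.8%, against 15.3% of all genes). Their median difference was 0.61. Their median log2 ratio was -0.01, 0.15 and -0.07 on the WT arrays and 0.64, 0.61 and 0.62 on the KO arrays. None of these genes is in the set of 50. With slide row as a block 7 of the 16 were called higher, against 4.95% of all genes, while the median difference stayed at 0.61.

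Markers of several kidney cell types also differed between the genotypes. All 9 principal cell genes tested fell, with a median difference of -2.04, and all 10 intercalated cell genes fell, with -2.40. Among all genes tested, 20% were called lower. The summed signal of the principal cell list, in units of each array's 75th percentile in Cy5, was 131 to 160 on the WT arrays and 25.9 to 33.3 on the KO arrays, and that of the intercalated list 64.9 to 102 and 14.2 to 17.3. Markers of both cell types were well above background in both genotypes, except the principal cell marker Scnn1g, which was above background on none of the arrays. Of 8 markers of ureteric tips, the dividing ends of the duct, 1 rose (12.5%, against 15.3% of all genes). Their median difference was -0.02, with summed signals of 43.6 to 115 in WT and 74.3 to 78.5 in KO. This median turned on WT replicate 2, whose own tip median was 0.89 beside 0.01 and 0.22 in the other WT replicates. It was 0.37 without WT replicate 2, where 3 of these genes and 12% of all genes were called higher. It was -0.30 without WT replicate 1 and 0.59 with slide row as a block. In bulk RNA of this kind, fewer cells of a type and less RNA per cell cannot be told apart.

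Lists of cells outside the duct are given beside all genes tested, of which 15.3% were called higher and 20% lower. Of 10 nephron progenitor genes 9 rose (median difference 2.28), with summed signals of 33.9 to 39.9 in WT and 76.2 to 147 in KO. Of 10 renal stroma genes 9 rose (median difference 2.26), with summed signals of 15.8 to 51.3 in WT and 137 to 143 in KO. Macrophage and leukocyte genes rose in 6 of 9 cases and fell in 1 (summed signals 47.4 to 63.1 in WT and 68.5 to 102 in KO), and podocyte genes rose in 2 of 7 (24.3 to 56.7 and 83.7 to 102). Endothelial genes fell in 9 of 10 cases (103 to 117 in WT and 50.1 to 53.7 in KO), erythroid genes in 6 of 6 (262 to 658 and 84.8 to 115) and proximal tubule genes in 3 of 9 (54.2 to 98.4 and 49.5 to 66.8). With slide row as a block, 9 nephron progenitor genes, 8 stroma genes and 1 macrophage and leukocyte gene were called higher. In the same fit 8 principal cell, 10 intercalated cell, 7 endothelial, 6 erythroid and 1 proximal tubule gene were called lower. The shares of all genes called higher and lower in that fit were 4.95% and 9.99%. The podocyte median was 0.21 and became -0.37 with that block, and 5 podocyte genes were called higher without WT replicate 1 and 1 without WT replicate 2, WT replicate 3 or KO replicate 3. Of all genes, 8.6% to 13.9% were called higher in those fits with 1 array left out. Proximal tubule genes called lower numbered 6 without WT replicate 2 (17.9% of all genes) and 1 without WT replicate 3 (13.4%). The anion exchanger gene Slc4a1 was in both the erythroid and the intercalated cell list. The erythroid markers Epb42 and Klf1 and the podocyte marker Magi2 were above background on none of the arrays.

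Summed over the 49 mitosis and kinetochore genes on the same scale, the signal was 304 to 308 on the WT arrays and 384 to 415 on the KO arrays. Over replicates 1, 2 and 3 of WT, the median of the 49 genes was 0.01, 0.04 and 0.04. The stroma median was 0.08, -0.90 and -1.08 there, and the nephron progenitor median 0.10, 0.07 and -0.06. Over replicates 1, 2 and 3 of KO, the median of the 49 genes was 0.62, 0.47 and 0.58. The stroma median was 1.72, 1.49 and 1.49 there, and the nephron progenitor median 2.25, 2.07 and 1.59. The part of these cell types in the result for the mitosis genes was not tested.

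**Figure D4:**
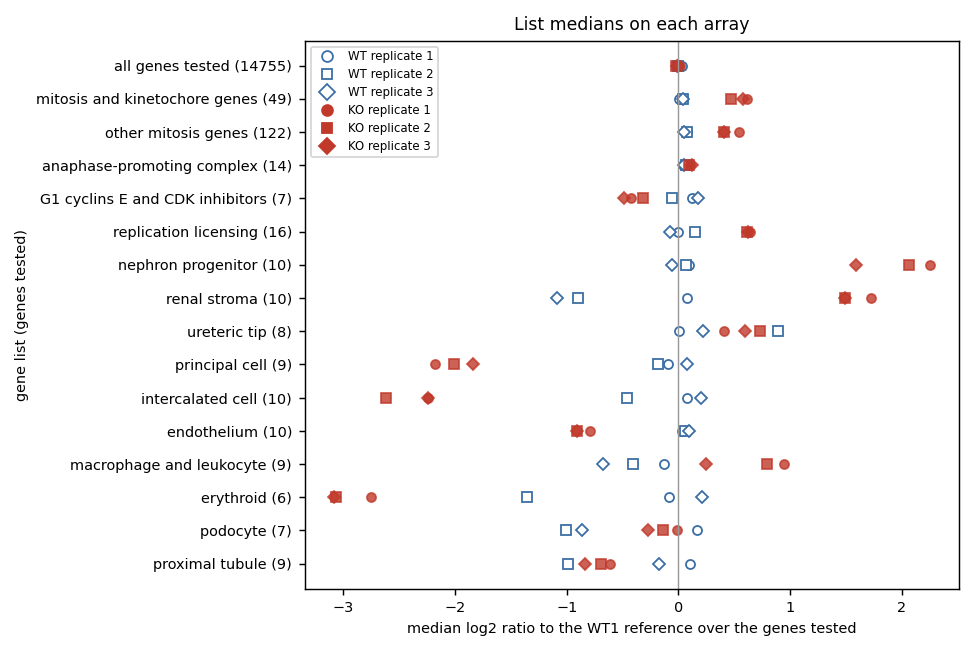
Median log2 ratio to the WT replicate 1 reference over the genes tested (x axis) for each gene list (y axis, number of genes tested in brackets), with open blue symbols for the 3 WT arrays and filled red symbols for the 3 KO arrays. The mitosis and kinetochore genes lie at 0.01 to 0.04 in WT and 0.47 to 0.62 in KO, whereas nephron progenitor genes reach 2.25 and principal cell genes -2.18 in KO.

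KO replicate 1 held the highest KO value for 27 of the 49 genes, KO replicate 3 for 14 and KO replicate 2 for 8. Among the 33 genes that rose, KO replicate 1 was the highest for 24. A weighting of arrays by their fit gave KO replicate 1 a weight of 0.254, against 0.837 to 1.86 for the other 5 arrays. Without it, 38 of the 49 genes were called higher and 2 lower, against 16.1% and 22.6% of all genes. The lowest count with 1 array left out was 24 called higher, without WT replicate 1 (11.9% of all genes), and 23 genes were called in all 6 of these fits.

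**Figure D5:**
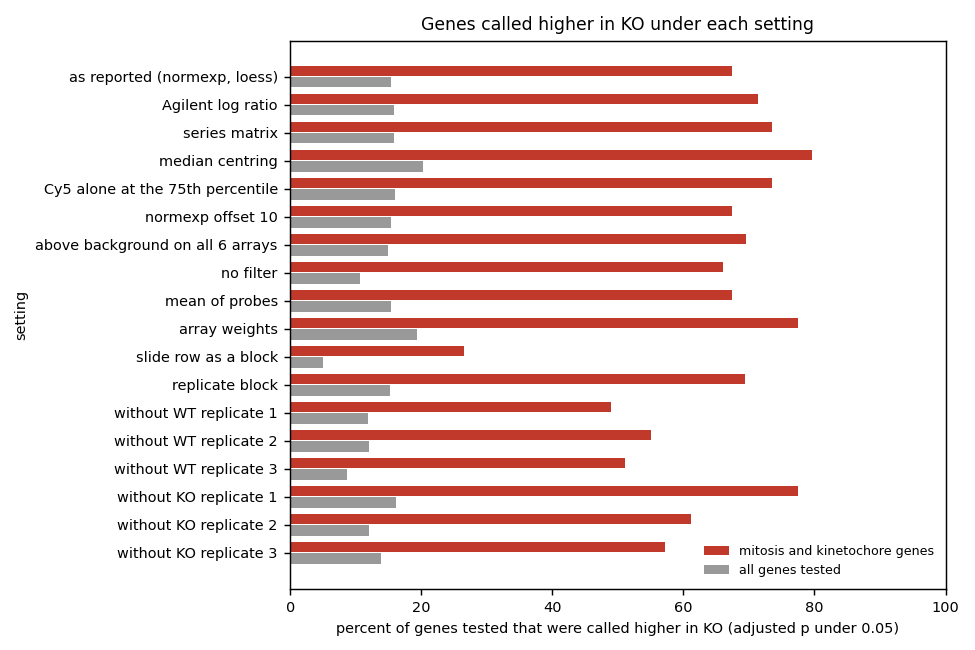
Percent of genes called higher in KO at an adjusted p under 0.05 (x axis, bars from 0) under each processing setting (y axis), for the mitosis and kinetochore genes (red) and for all genes tested (grey). The red bar is longer than the grey bar in every setting, and slide row as a block gives the shortest pair, with 13 genes of the set and 4.95% of all genes.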

How the data were processed

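Cy3 and Cy5 median intensities of spots and of their local background came from the deposited scanner files, written by Agilent Feature Extraction 10.7.3.1 per the file headers, whereas the submitters' processing notes name version 6.1. The deposited log10 ratios of Cy5 over Cy3 came from signals that the program had corrected for background and dye, per the file headers; the deposited series matrix matched them within 0.00499, and both served as alternatives. The direction is KO over WT because Cy5 held the sample per the labels.

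With limma 3.58.1 in R 4.3.3, intensities were corrected by normexp (offset 50) and loess-normalised within arrays, with control spots given no weight and outlier spots (196 to 403 per array) left out. Spots of a probe were averaged, probes well above background in Cy5 on at least 3 of 6 arrays were kept, and the brightest probe stood for a gene. Of 55681 probes, 27509 were named through accessions in the RefSeq table of GRCm38.p6. lmFit and eBayes compared 3 KO with 3 WT arrays, with Benjamini-Hochberg adjustment over 14755 genes. The number of arrays limits the precision, and 0 spots were saturated. The fit was also run on simulated data, and the outcome is not reported here. The members and the gene lists were chosen with earlier results of these data known. Values are given for Mki67, Top2a, the D cyclins, up to 3 genes per role or list with the smallest p, genes called against the prevailing direction and genes whose probes disagree in sign; other members are summarised, some with a value, chosen after values were seen.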

Additional observations from a re-analysis of the deposited data

How the results depend on the processing

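Of the 34 genes called, 13 that rose kept the call in all 17 alternative settings, 9 lost it only with slide row as a block, and 0 changed sign. With Agilent's log ratio, the series matrix, median centring, Cy5 alone and a normexp offset of 10, the median difference of the set was 0.64, 0.63, 0.83, 0.63 and 0.59. Median centring moved the median of all genes to 0.24, so that 74.3% of called genes were higher against 43.4% as reported. It left 0 genes of the set and 1 other mitosis gene called lower, against 7.02% of all genes. Array weights gave 3 genes of the set and 7 other mitosis genes called lower, against 25.6% of all genes. Slide row as a block gave 2204 genes called in all, 13 of the set higher and 0 lower, and 13 other mitosis genes higher. Leaving out 1 array at a time gave 3243 to 5715 genes called in all, 24 to 38 of the set higher and 1 to 2 lower, medians of 0.47 to 0.57, and 32 to 64 other mitosis genes higher and 4 to 7 lower. Sign changes touched 5 genes without a call. Ccnd3 was at 0.12 and Spc25 at 0.035 under median centring. Cdk6 was at 0.066 under median centring and 0.025 with offset 10, and ranged from -0.18 to 0.10 with 1 array left out, positive without WT replicate 1 or KO replicate 1. Cenpf ranged from -0.083 to 0.13, negative without WT replicate 1 or KO replicate 2. Pttg1 was at 0.045 with Agilent's log ratio and with the series matrix and at 0.27 under median centring, and ranged from -0.11 to 0.035, positive without KO replicate 1. The causes were not tested. Replicate numbers were not taken to pair samples, since deviations of same-numbered samples correlated at 0.135, 0.0835 and 0.201, although every sample correlated best with its own number; a replicate block gave 34 genes of the set higher and 1 lower, and 5130 genes in all, with Ndc80 and Cenph gaining a call (adjusted p 0.0395 and 0.0376) and Birc5 losing it (0.0528). With 3 arrays per group and signals near background for Cdk6, Cenpf, Ncapg, Aurkb and, on the WT arrays, Plk4, small differences were not detectable.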
